A study of Danio rerio with 26 samples.

Results

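The part of zebrafish chromosome 4 from 28 Mb to its end held 247 of the 25975 consensus ATAC-seq peaks. The members were taken by position alone, as every peak on chromosome 4 that starts at 28 Mb or beyond in the Zv10 assembly. Chromosome 4 below 28 Mb held 578 peaks and the other 24 assembled chromosomes held 24696. The remaining 454 peaks were on unplaced scaffolds and were not compared here.

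The peaks came from 17 libraries of whole wild-type zebrafish embryos, with 2 libraries at the 256-cell stage, 3 at high, 3 at oblong, 2 at sphere, 3 at dome, 2 at shield and 2 at 80% epiboly. The embryos were freed of yolk, and open DNA was marked with the Tn5 transposase, which inserts sequencing adapters where nucleosomes leave DNA exposed. The authors called peaks on short, nucleosome-free fragments against tagmented naked genomic DNA and merged the wild-type stages into 1 list. Libraries of α-amanitin-treated embryos and of pou5f3, sox19b and nanog mutants, all at oblong stage, have no values in this list and were not analysed here. The list gives a chromosome, a start and an end for each peak, without stage, height or library, so neither the depth of a peak nor its course over the stages could be measured.

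The long arm of zebrafish chromosome 4 is known as the most heterochromatic part of the genome. It replicates late, is rich in repeats, and carries large families of NLR immune receptor genes and zinc finger genes in many copies. Chromosome 4 also carries the miR-430 cluster, a tandem array of microRNA genes that is among the first to be transcribed in the embryo and whose products clear maternal mRNA. In the RefSeq annotation of the assembly GRCz12tu, 57 of 58 genes named as miR-430 are on chromosome 4. That assembly is not the one of the peaks, so no peak was placed here at a miR-430 gene or at any other gene. The paper itself marks peaks within the miR-430 cluster. It reports that this cluster lost accessibility in α-amanitin-treated embryos at oblong stage.

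Peaks were sparse over most of the stretch from 28 Mb on, and they were spread unevenly relative to their low mean. The 48 full bins of 1 Mb averaged 4.83 ± 6.86 peaks (SD, n = 48 bins), with a median of 3. The 15 peaks beyond 76 Mb lie in no full bin and are not counted in them. The first bin, with 44 peaks, was not sparse and weighs heavily in the SD. From 30 to 68 Mb the bins averaged 2.87 ± 2.53 (SD, n = 38 bins). The 28 bins below 28 Mb averaged 20.6 ± 11.3, and the means of the other 24 chromosomes ranged from 16.3 on chromosome 12 to 22.2 on chromosome 3. In mean peaks per bin, the stretch thus lay below all 24 other chromosomes, at 0.255 times their median. Its SD over bins was also below each of theirs, which ranged from 7.31 to 13.6. The spread was thus large relative to the mean but not in absolute terms.

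Bins with few peaks made up most of the stretch. Of its 48 bins, 32 (66.7%) held 4 peaks or fewer, against 30 of the 1279 bins elsewhere (2.35%), and 44 held 9 or fewer, against 12.3% elsewhere. The 4 bins with more were the first, with 44 peaks, a number that only 19 bins elsewhere reached, and those from 46, 72 and 73 Mb, with 10, 13 and 18.

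**Figure D1:**
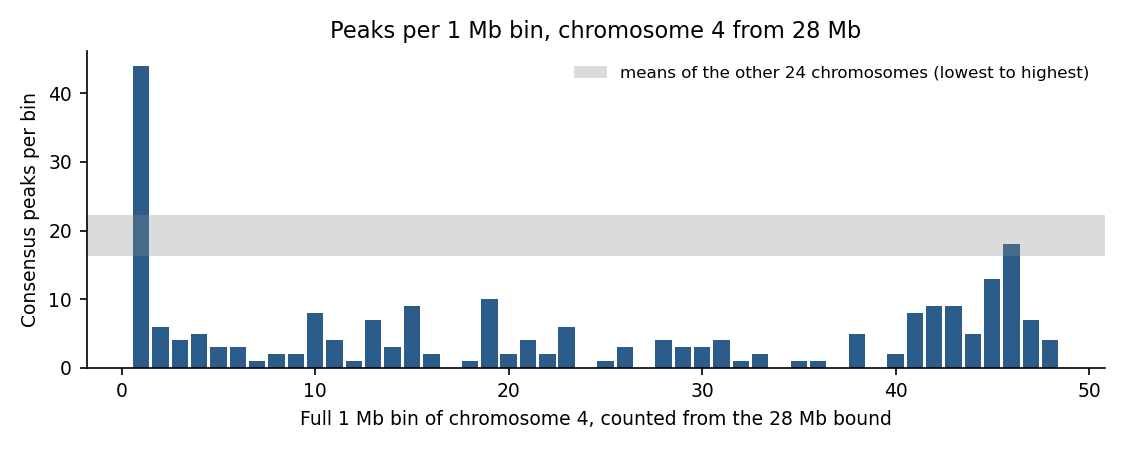
Consensus peaks in each full 1 Mb bin of chromosome 4, counted from the bound at 28 Mb (bars), with the range of the mean peaks per bin of the other 24 chromosomes as a grey band from 16.3 to 22.2. The first bin holds 44 peaks and the bin from 73 to 74 Mb holds 18, and all other bins stay below the band.

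All p-values were left out, because the list is a single merged set without replicates, neighbouring peaks depend on one another, and the stretch was proposed with its low density already known. The comparisons are therefore given as ranges over the 24 other chromosomes and as intervals that cover counting error only. The intervals treat peaks as independent, so they may be too narrow. Long gaps and isolated peaks go with few peaks per Mb by arithmetic. Their values below describe the known low density further and are not separate support for it. The mean gap was 3.82 times the median of the other chromosomes, where mean peaks per bin were 0.255 times theirs.

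Most of the stretch was filled by long intervals without any peak. The median gap from the end of a peak to the start of the next was 61.7 kb (95% interval from order statistics 42.6 to 84.0 kb, n = 246 gaps), against 19.8 kb below 28 Mb and 17.4 to 26.4 kb on the other chromosomes. The upper quartile was 222 kb, whereas the highest upper quartile of another chromosome was 77.2 kb. The lower quartile, 7.95 kb, was also above the range of the others, which ended at 6.18 kb.

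Gaps of over 1 Mb numbered 9 among the 246 gaps of this stretch and 4 among the 25249 gaps elsewhere. Of the 10 longest gaps on all assembled chromosomes, 7 were here, and 5 exceeded the longest gap elsewhere, 1.46 Mb. Gaps of over 0.5 Mb were 28 of 246 here (11.4%) and 94 of 25249 elsewhere (0.372%). The 28 added up to 28.0 Mb, which is 57.7% of the 48.5 Mb from the first to the last member. The share of length in such gaps elsewhere was not computed.

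The 5 longest gaps all lay between 45 and 68 Mb. The longest, 2.48 Mb, ran from 60048221 to 62525411. The next spanned 2.001 Mb from 65773974 to 67774956 and 1.87 Mb from 63554389 to 65423775. With the longest they took up most of the 8 Mb from 60 to 68 Mb. The remaining pair, of 1.55 Mb from 45073504 to 46618697 and of 1.49 Mb from 50808046 to 52294274, lay closer to the middle of the stretch. The peaks on either side of the 5 gaps were 206 to 355 bp wide.

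**Figure D2:**
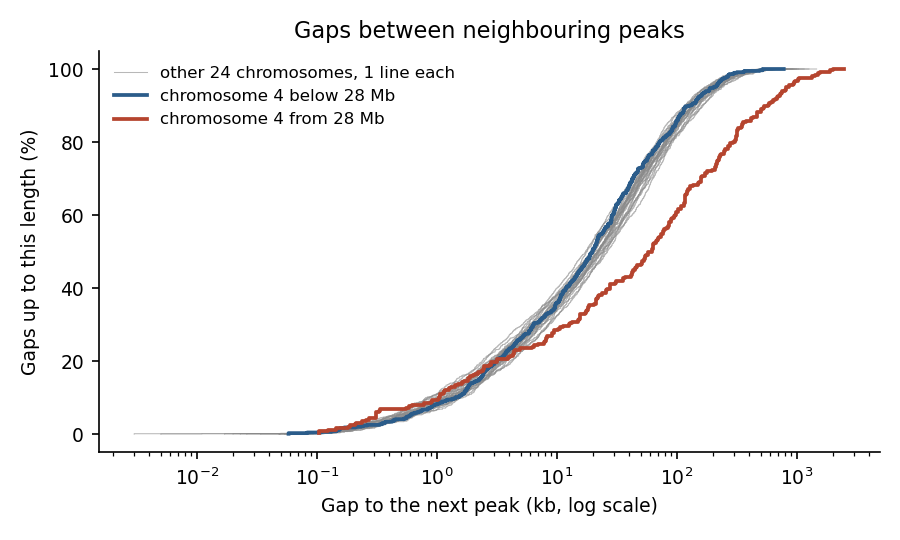
Cumulative share of gaps (%, vertical axis) up to each length (kb, log scale) for chromosome 4 from 28 Mb in red, chromosome 4 below 28 Mb in blue and each of the other 24 chromosomes in grey. With the dense window at 28.7 to 28.8 Mb included, the red curve runs with the others up to gaps of a few kb and then falls behind, with a median of 61.7 kb against 17.4 to 26.4 kb.

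With the dense window at 28.7 to 28.8 Mb included, short gaps were about as frequent as elsewhere. Of the 246 gaps, 38 (15.4%) were 2 kb or shorter (exact binomial interval 11.2 to 20.6%), a share inside the range of 11.2 to 17.5% over the other chromosomes. When measured from midpoint to midpoint, 86 members (34.8%, interval 28.9 to 41.1%) had a neighbour within 5 kb. This was just below the lowest of the other chromosomes, 35.7% on chromosome 18, which lies inside the interval. The window held 15 of the 38 short gaps. Without it, 10.1% of the gaps were 2 kb or shorter and 29.4% of the members had a neighbour within 5 kb, both below the lowest of the other chromosomes. These shares are given without intervals, and the other chromosomes kept their own dense windows, so the comparison is uneven. At long distance, 57 members (23.1%, interval 17.97 to 28.8%) had no neighbour within 100 kb, against 1.60 to 5.53% on the other chromosomes and 3.63% below 28 Mb. This share is tied to the low density, which was known beforehand, and is not a separate result.

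**Figure D3:**
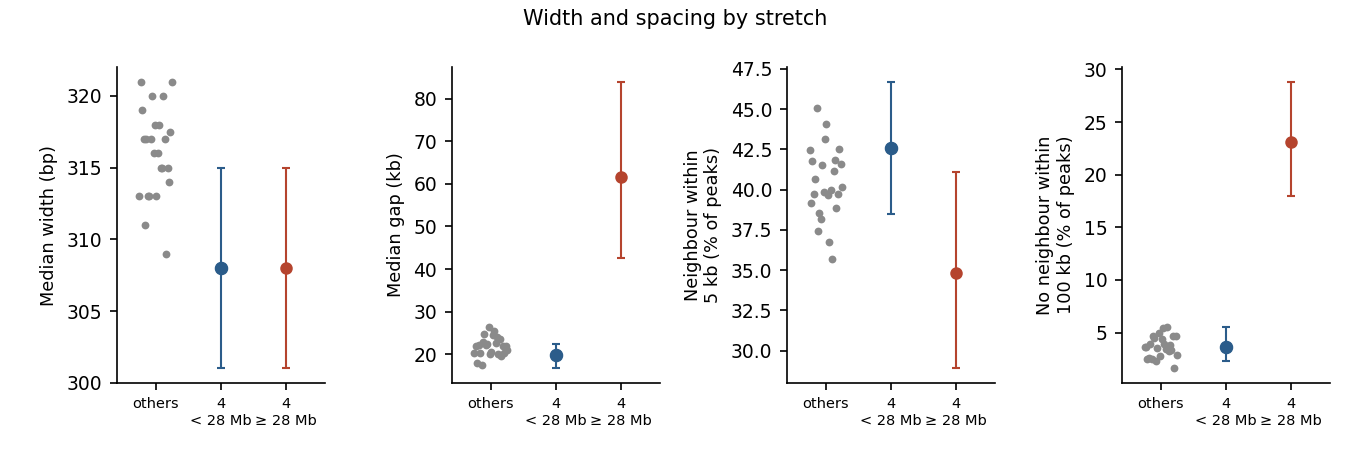
Median width (bp), median gap (kb) and shares of peaks with a neighbour within 5 kb and with none within 100 kb (%), for the other 24 chromosomes (grey points), chromosome 4 below 28 Mb (blue) and from 28 Mb (red). Bars are 95% intervals for counting error, and the vertical axes do not start at 0. The red points stand apart for the median gap (61.7 kb) and for peaks without a neighbour within 100 kb (23.1%). Both are tied to the low density, which was known beforehand.

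By median and upper quartile, members were slightly narrower than peaks of the other 24 chromosomes, but not by lower quartile or mean. The median width was 308 bp (95% interval 301 to 315 bp), the same as below 28 Mb, whereas the other chromosomes ranged from 309 to 321 bp. The difference from the lowest of them was 1 bp and lay inside the interval. The upper quartile was 357.5 bp and lay below that of each other chromosome, of which the lowest was 381 bp. A share of 6.48% of the members (16 peaks, interval 3.75 to 10.3%) had the smallest width in the list, 200 bp, against 1.81 to 4.07% on the other chromosomes, the upper end of which lies inside the interval.

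Members with close neighbours had a larger median width than isolated ones. The 86 members with a neighbour within 5 kb had a median of 324.5 bp (interval 313 to 352 bp), the 104 with the nearest neighbour at 5 to 100 kb had 305 bp (295 to 320 bp), and the 57 without a neighbour within 100 kb had 293 bp (280 to 310 bp). The same order held on the other 24 chromosomes, with 329, 309 and 304.5 bp. Isolated peaks were 23.1% of the members and 3.58% of the peaks of those chromosomes, so the members held a larger share of the narrowest class. Within each class the median of the members was also the lower, by an amount inside its interval. The part of either in the median width of the stretch was not tested.

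Wide peaks lay toward both ends of the stretch. There were 15 members of 600 bp or more (6.07%, interval 3.44 to 9.82%), within the range of 2.71 to 6.96% on the other chromosomes. Of these, 8 lay in the single window from 28700001 to 28800000 and 7 lay beyond 68 Mb. None of the 109 peaks from 30 to 68 Mb reached that width, and the widest of them measured 593 bp.

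Without that window the share of wide peaks was 3.07% (7 of 228 peaks). With the window kept and peaks up to 500 bp apart merged, the share was 6.93%, and the stretch then ranked above only 2 of the other chromosomes instead of 23.

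**Figure D4:**
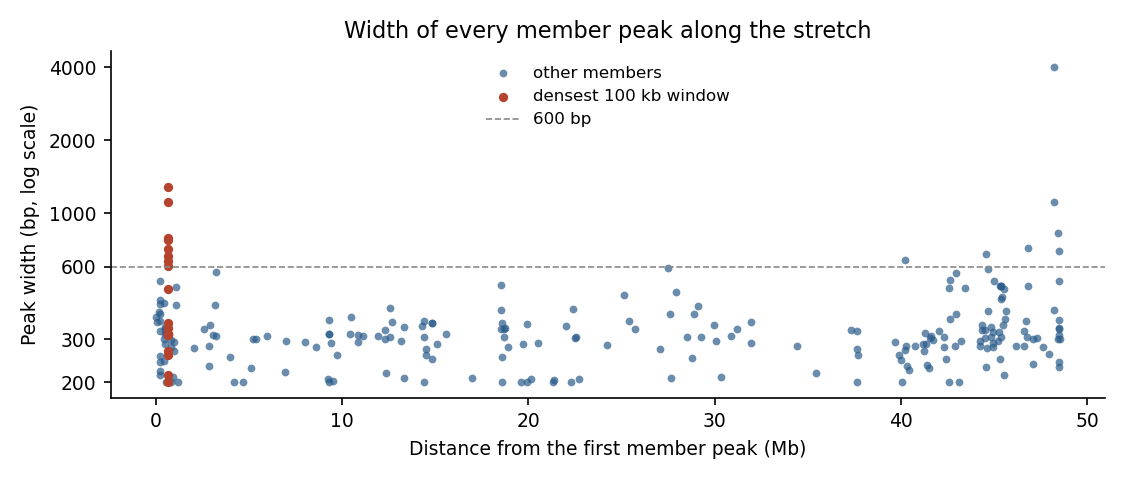
Width of every member (bp, log scale) against its distance from the first member (Mb), with the 19 peaks of the densest 100 kb window in red and the others in blue. The dashed line marks 600 bp, and every peak above it lies either in that window or toward the far end, where the widest measures 4037 bp.

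The 5 widest members fell into these same places. The widest peak of the whole list, of 4037 bp, spanned 76320117 to 76324153. Next came a peak of 1283 bp from 28738741 to 28740023, which 22 peaks of the list exceeded, and 1 of 1115 bp from 28759412 to 28760526. Those of 1109 bp from 76325068 to 76326176 and of 830 bp from 76548315 to 76549144 were again at the far end.

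Peaks were grouped into runs by joining neighbours with gaps of 2 kb or less. Of the 247 members, 186 (75.3%, interval 69.4 to 80.6%) stood alone, and the others formed 18 pairs, 3 runs of 3, a run of 4 and a run of 12. The share in pairs or runs, 24.7%, was within the range of 20.5 to 29.9% of the other chromosomes. Without the dense window, 81.1% of the members stood alone. The run of 12 was longer than any run on 23 of the 24 other chromosomes, and the longest run below 28 Mb had 6 peaks. Both runs of 4 or more were in the first bin, so from 30 Mb on no run exceeded 3 peaks.

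The densest window of 100 kb, from 28700001 to 28800000 on chromosome 4, held 19 peaks, or 7.69% of the members. The next peaks lay 76.4 kb before and 130 kb after the group, where the median gap of the whole stretch was 61.7 kb. All 19 lay within 36.7 kb, from 28738741 to 28775457, and covered 9.94 kb. Among the 13385 windows of 100 kb on the assembled chromosomes, 2 held more peaks and 3 held as many, while 6 had more bases covered by peaks. The number depends on the window bounds: with windows shifted by 50 kb, the densest of the stretch held 15 peaks. The median window held 1 peak and 373 covered bases. Since the window was chosen for its number of peaks, these ranks only describe it.

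The group opened with a run of 4 peaks, 3 of them at least 600 bp wide. They spanned 28738741 to 28740023 (1283 bp), 28740128 to 28740439 (312 bp), 28741460 to 28742172 (713 bp) and 28742317 to 28742919 (603 bp). The first and the last pair were separated by 104 and 144 bp, and 1.02 kb lay between the pairs. Together the 4 peaks covered 69.7% of 4.18 kb.

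After 9.48 kb without a peak came the run of 12, from 28752402 to 28764576, with 51.7% of its 12.2 kb covered. Its first 4 peaks were narrow, from 28752402 to 28752736 (335 bp), 28753050 to 28753317 (268 bp), 28753556 to 28753905 (350 bp) and 28754824 to 28755137 (314 bp). The middle of the run held both narrow and wide peaks, from 28756025 to 28756657 (633 bp), 28756969 to 28757228 (260 bp), 28757499 to 28757982 (484 bp), 28758316 to 28759101 (786 bp) and 28759412 to 28760526 (1115 bp). The last 3 were from 28761656 to 28761971 (316 bp), 28762096 to 28762762 (667 bp) and 28763806 to 28764576 (771 bp). The wide peaks of this run lay in its second part, with 5 of at least 600 bp among its last 8 and none among its first 4. The split was placed after the widths had been seen and was not tested.

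The gaps inside the run of 12 fell into short and long ones. In order along the chromosome they were 313, 238, 918, 887, 311, 270, 333, 310, 1129, 124 and 1043 bp. No gap measured between 333 and 887 bp, and 7 of the 11 were at most 333 bp. Gaps of 310, 311, 313 and 333 bp recurred here, and gaps of 309 and 330 bp occurred near the far end of the chromosome. Taken over all members, 6 of 246 gaps (2.44%) measured 300 to 340 bp, against 116 of 25249 (0.459%) elsewhere. This range was chosen after the gaps had been seen and was not tested.

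The group ended in 3 narrow peaks at wider spacing, from 28768988 to 28769201 (214 bp), 28770616 to 28770815 (200 bp) and 28775141 to 28775457 (317 bp). They followed at gaps of 4.41, 1.41 and 4.33 kb. The 16 peaks of both runs thus held all 8 wide peaks of the window. Merging of peaks up to 500 bp apart left 10 peaks in the window.

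**Figure D5:**
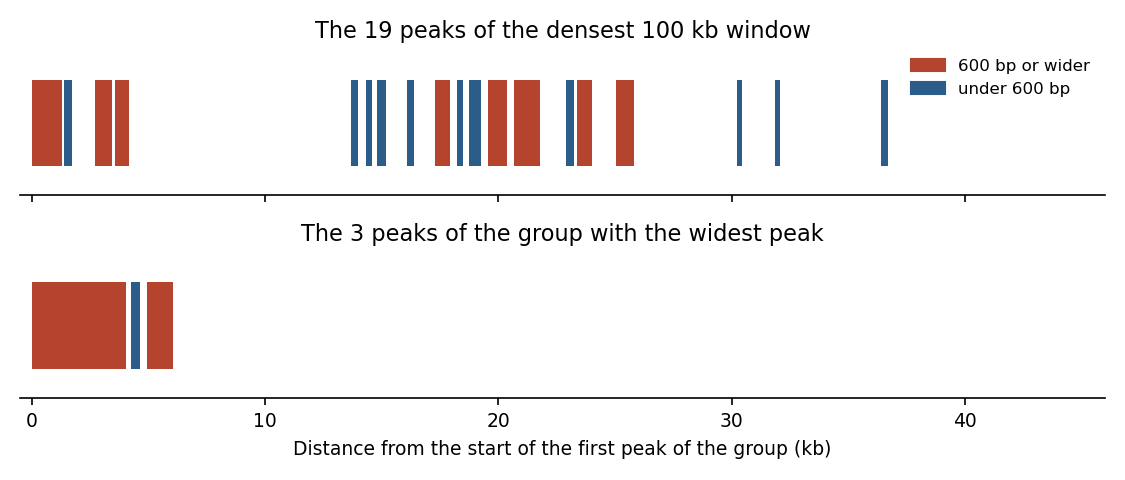
Peaks drawn to scale as boxes along the distance from the start of the first peak of the group (kb), above for the 19 peaks of the densest 100 kb window and below for the run of 3 peaks that holds the widest peak. Red boxes are at least 600 bp wide: 8 of 19 above, all within the runs of 4 and 12 peaks, and 2 of 3 below.

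From 28 to 30 Mb there were 50 peaks, of which 31 lay outside the window. The first member of the stretch, from 28101889 to 28102260 (372 bp), lay 305 kb beyond the last peak below 28 Mb. Over all 50, the median gap was 4.41 kb, a neighbour within 5 kb was found for 32 (64.0%), and none was without a neighbour within 100 kb. The window shifted the first 2 of these values. Outside it, the median gap was 15.6 kb (n = 30 gaps, including the one across the removed window). This was still below the lowest of the other chromosomes, 17.4 kb. Of the 31 peaks outside it, 13 (41.9%) had a neighbour within 5 kb, inside the range of 35.7 to 45.1% over the other chromosomes. The bin from 29 Mb held 6 peaks. The median width of these 31 peaks was 315 bp. The last peak before 30 Mb, from 29288440 to 29288639, was followed by 866 kb without a peak.

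From 30 to 68 Mb lay 109 peaks, or 44.1% of the members, at 2.87 ± 2.53 per bin (SD, n = 38 bins). The lowest bin held none, the median bin 2 and the highest 10, and 6 bins were empty. The gaps were long, with a median of 166 kb and quartiles of 42.0 and 476 kb, and 49 peaks (45.0%) had no neighbour within 100 kb. Their median width of 302 bp (interval 289 to 311 bp) lay below that of each other chromosome, although the interval reaches the lowest of them.

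Small groups occurred in this part too. One run of 3 spanned 37384586 to 37387963, with widths of 315, 315 and 360 bp and gaps of 1137 and 1251 bp. Another spanned 42932129 to 42934285, with widths of 351, 352 and 250 bp and gaps of 623 and 581 bp. Both had nearly even spacing. The bin from 46 to 47 Mb was the densest of this part, with 10 peaks of 200 to 502 bp, all beyond 46618698, where the gap of 1.55 Mb ended.

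Peaks were again closer from 68 to 76 Mb. The 8 bins from 68 to 76 Mb held 73 peaks, 9.13 ± 4.52 per bin (SD, n = 8 bins). The means of the other chromosomes were 16.3 to 22.2. The lowest of the 8 bins held 4 peaks and the highest 18, so none was empty. The median gap was 57.4 kb, against 17.4 to 26.4 kb on the other chromosomes. Of the 73 peaks, 7 (9.59%) were without a neighbour within 100 kb, against 1.60 to 5.53% on the other chromosomes. The median width was 307 bp (interval 291 to 325 bp) and 3 peaks reached 600 bp.

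The 2 densest full bins from 30 Mb on lay side by side in this part. The incomplete bin from 76 Mb, with 15 peaks in 0.613 Mb, was not ranked. The bin from 73 to 74 Mb held 18 peaks, more than 46.8% of the bins outside the stretch, and that from 72 to 73 Mb held 13, more than 22.5% of them. In the bin from 73 Mb the peaks were 213 to 522 bp wide with a median of 356 bp, and lay between 73042750 and 73741162. They were followed by 524 kb without a peak.

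The chromosome ended in a short part that was denser than most of the stretch. Beyond 76 Mb there were 15 peaks in the 0.613 Mb up to the last peak, which spanned 76612392 to 76612692 (301 bp). With the length cut at that peak, this is 24.5 per Mb. The means per 1 Mb bin of the other chromosomes were 16.3 to 22.2. The widest peak of the list belonged to a run of 3, from 76320117 to 76326176, in which peaks of 4037, 396 and 1109 bp were separated by 209 and 309 bp and covered 91.5% of 6.06 kb. No other peak lay within 200 kb of it on either side, the gaps being 277 and 214 kb.

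The last 11 peaks lay within 72.6 kb, from 76540125 to 76612692. Their gaps ranged from 0.330 to 15.3 kb, and their widths from 231 to 830 bp with a median of 330 bp. Over the whole end beyond 76 Mb, 10 of 15 peaks (66.7%) had a neighbour within 5 kb. The parts were bounded with the peaks per bin known, and differences between them were not tested.

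Pairs were the most frequent kind of group along the whole stretch. The same was true below 28 Mb and on each of the other 24 chromosomes. The 18 pairs had gaps of 183 to 1881 bp with a median of 1111 bp, and 5 of the gaps were at most 500 bp. Of the pairs, 15 lay from 30 Mb on, and 1 of them, from 73483432 to 73485587, consisted of peaks of 497 bp each at a gap of 1162 bp. This pair was named after its values had been seen.

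Reads that map equally well to several copies of a repeat fail the authors' filter on alignment quality, and assemblies can lack repeated sequence. No value of the list measures either, so their part in the low number of peaks was not tested, and a long gap does not show closed chromatin.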

How the data were processed

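Cells of wild-type zebrafish embryos at 7 stages were profiled by ATAC-seq in 17 libraries. According to the methods of the study and the submitters' processing notes, the authors trimmed reads with cutadapt 1.9.1, aligned them with Bowtie2 2.2.4 to Zv10, removed duplicates, mitochondrial reads and alignments of low quality, shifted read ends for the Tn5 insertion, and kept short fragments. They called peaks with MACS2 2.1.1 on pooled replicates of each stage, retained a peak only where each replicate had it, and merged the stages. The deposited values are positions in base pairs, without counts or signal, so no depth per library can be given and no interval for a signal.

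Starts were read as counted from 0, since the smallest width is then exactly 200 bp, and are printed counted from 1. Peaks were placed in bins by midpoint, with full bins of 1 Mb from the start of each chromosome. Gaps were measured from end to start within the stretch, and neighbours from midpoint to midpoint. Runs joined gaps of up to 2 kb. Intervals are exact binomial for shares and order-statistic for medians, at 95%. Both treat peaks or gaps as independent, although neighbouring peaks are not, so they may be too narrow. Run sizes, merging, bins, nearest neighbours and the median interval were tested on simulated data, the interval on independent draws. Binomial intervals, window ranks and gap classes were not tested in this way. The calculations used scipy 1.17.1, pandas 2.3.3 and numpy 2.4.6 under Python 3.11.15. Plots were drawn with matplotlib 3.10.9.

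The stretch, its parts and the measures were chosen with earlier results of these data known. Coordinates were given for all peaks of the densest 100 kb window and of runs of 4 or more, and for the 5 widest members. They were also given for the 5 longest gaps, the first and last member and the 3 densest full bins from 30 Mb on. Otherwise they were given for regions picked after their values had been seen, among them the runs of 3. Alternatives were other bins, bounds, run gaps and neighbour distances, merging of peaks, and leaving out the densest window or peaks of 200 bp. Sequence and gene annotation of Zv10 were not used here, so GC content, repeats and genes of the members were not analysed.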

Additional observations from a re-analysis of the deposited data

How the results depend on the processing

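Of 52 alternative values, 34 stayed within the spread allowed (the SD over bins, the 95% interval, or 1.5 times for a number) and 18 did not. The density and the median width gave no value outside it. For the density this was a weak check, since the SD over bins (6.86) exceeded the mean (4.83). Other bin sizes left the mean density per Mb unchanged by construction. Merging across up to 100 bp could not change any value of the members, because their smallest gap was 104 bp. From 30 Mb, the median gap was 90.6 kb, a neighbour within 5 kb was found for 27.4% and 0 runs had 4 or more peaks, since the dense first part is then left out. Merging across gaps of up to 500 bp gave 28.1% with a neighbour within 5 kb, 83.1% single peaks, 1 run of 4 or more and 10 peaks in the densest window. Without the densest window, 3.07% of the peaks reached 600 bp, 81.1% were single and 0 runs had 4 or more. Also without it, in 2 alternatives chosen after seeing the data, 10.1% of the gaps were at most 2 kb, and 41.9% of the peaks from 28 to 30 Mb had a neighbour within 5 kb. Neighbours within 2 kb and 10 kb were found for 21.1% and 41.3%. Run gaps of 1 kb and 5 kb gave 85.8% and 64.4% single peaks and 1 and 5 runs of 4 or more. Under merging across up to 100 or 500 bp and without peaks of 200 bp, the median gap and the share of peaks without a neighbour within 100 kb stayed above all 24 other chromosomes and the median width below them. No paired analysis was possible because the positions carry no values by replicate, which also means that leaving out single replicates could not be tried. The unknown depth of the libraries limits which sites were listed. The planned description of peak sequences needs the genome of Zv10 and was not run.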
